A study of Mus musculus with 18 samples.

Results

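Fkbp5, Zbtb16, Tsc22d3, Sgk1, Klf9, Errfi1, Ddit4 and Cebpd are 8 genes that glucocorticoids are known to induce. They are described here in the jejunum of mice whose abdomen was irradiated at an ultra-high dose rate (FLASH) or at a conventional one (CONV). The 8 genes, of 54532 in the count table, were matched by symbol to their Ensembl identifiers, and all 8 had enough counts to be tested. They were chosen by measured values, because they were higher in FLASH than in CONV, so that difference is a description and carries no test.

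The mice were of the inbred C57BL/6 strain and 8 to 12 weeks old, and whole jejunum was sampled. A single dose of 15 Gy to the whole abdomen was given at the FLASH or the CONV rate, untreated mice were the controls, and the tissue was taken 16 h after irradiation. There were 6 control, 5 CONV and 7 FLASH libraries, named here by group and replicate number. Nothing in the labels ties a library to a mouse of its own, so a p-value here measures spread among libraries that may be technical. The RNA came from all cells of the gut wall together, so fewer cells of a type and less RNA per cell cannot be told apart.

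Glucocorticoids act through the glucocorticoid receptor, the product of Nr3c1, which chaperones hold ready in the cytoplasm. With hormone bound, the receptor enters the nucleus and binds DNA elements made of a pair of arms that face each other, often far from the start of the gene. The adrenal gland releases the hormone under stress, and the gut epithelium can also make and reactivate it. Most of the 8 genes also answer to other signals, such as growth factors, fasting, hypoxia or DNA damage, and Ddit4 is also a p53 target.

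Total estimated counts per library were 24.3 to 27.8 M in controls, 19.9 to 27.0 M in CONV and 23.1 to 30.2 M in FLASH. The 8 jejunal enterocyte markers together held 10770 to 26627 CPM (counts scaled to a common library size) in controls. They held 39186 to 77281 in CONV and 36783 to 69243 in FLASH, so enterocyte RNA was high in every library. Not all 8 markers shared the higher sum after irradiation. Against control, edgeR called 4 higher in CONV (10.2% of all genes tested) and 5 in FLASH (16.7%). Median Apoa4 was 5172, 19791 and 29826 CPM in control, CONV and FLASH, and median Vil1 2387, 1690 and 2382. In some libraries expression also varied with transcript length. This slope of log2 expression on log2 length was most negative in control 6 (-0.41), CONV 6 (-0.43) and FLASH 1 (-0.34).

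RefSeq promoter windows (GRCm38.p6, 250 bases before to 50 after each start site) were found for 6 of the 8 genes, in 14 windows, and none for Zbtb16 and Cebpd. They were searched on both strands for the core of the receptor's element, which reads G, any base, ACA, 3 unspecified bases, TGT, any base, C, and for its arm AGAACA, which the core can overlap. The 250 upstream bases of 3 windows are printed 5′ to 3′ on the gene's strand, with matches in capitals. They show the single match to the core, a lone arm, and a window of the gene with the largest FLASH difference from control among the matched 6. The first is the window of 1 of the Sgk1 start sites (+ strand, chr10:21993640-21993889). The second lies before the most upstream Tsc22d3 start (− strand, chrX:140600523-140600772), and the third before an Fkbp5 start (− strand, chr17:28486150-28486399).
Sgk1: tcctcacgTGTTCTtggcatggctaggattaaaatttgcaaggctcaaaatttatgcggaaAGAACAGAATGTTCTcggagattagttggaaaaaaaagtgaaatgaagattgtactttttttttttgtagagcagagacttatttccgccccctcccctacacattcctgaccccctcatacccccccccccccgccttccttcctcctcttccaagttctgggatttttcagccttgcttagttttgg
Tsc22d3: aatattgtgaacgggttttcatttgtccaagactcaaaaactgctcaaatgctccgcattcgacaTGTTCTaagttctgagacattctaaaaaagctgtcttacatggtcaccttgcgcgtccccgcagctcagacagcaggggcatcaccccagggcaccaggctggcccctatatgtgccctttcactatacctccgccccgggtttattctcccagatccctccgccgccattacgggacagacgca
Fkbp5: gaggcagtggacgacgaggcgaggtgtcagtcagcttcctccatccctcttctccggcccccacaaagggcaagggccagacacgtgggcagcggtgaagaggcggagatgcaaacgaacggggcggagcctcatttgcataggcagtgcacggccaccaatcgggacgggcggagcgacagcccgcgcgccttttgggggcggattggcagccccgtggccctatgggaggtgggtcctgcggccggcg

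The Sgk1 window held 2 arms facing each other with 3 bases between them, the second of its 2 runs of capitals, on chromosome 10 from 21993701 to 21993715. It begins 189 bases before that start site and 965 bases before the most downstream Sgk1 start in the table. Such a palindrome was in 3 of 32851 windows of all genes (0.00913%), a count that includes this window. The palindrome was not among the patterns set for the search, so its share is a description only. The looser core was in 0.475% of windows and in 1 of the 14 windows of these genes. A single arm was in 19.0% of all windows, in 3 of the 6 Sgk1 windows and in the Tsc22d3 window printed. The windows of Fkbp5, Klf9, Errfi1 and Ddit4 held neither, which says only that those letters are not in those bases.

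Fkbp5 encodes FKBP51, a co-chaperone that lowers the hormone affinity of the glucocorticoid receptor and so feeds back on it. The gene lies on chromosome 17 (28399094 to 28517527, − strand, mm10). Its level was 5.22, 10.6 and 23.7 CPM in the lowest, median and highest control library. The CONV libraries 2, 3, 5, 6 and 7 had 42.5, 21.2, 39.4, 60.2 and 19.7 CPM. FLASH libraries 1, 2, 4, 5, 6, 7 and 9 had 314, 433, 154, 285, 505, 465 and 552 CPM. Every FLASH library was above every CONV library, and only CONV 3 and CONV 7 fell inside the control range. The 6 controls averaged 12.9 ± 6.72 CPM (SD), the 5 CONV libraries 36.6 ± 16.8 and the 7 FLASH libraries 387 ± 141.

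Tsc22d3 encodes GILZ, a leucine zipper protein that mediates anti-inflammatory effects of glucocorticoids (chromosome X, 140539528 to 140600659, − strand). It had 36.9, 60.4 and 78.3 CPM in the lowest, median and highest control. The 5 CONV libraries had 167, 87.7, 96.2, 167 and 83.1 CPM in the same order as above, all above the controls. In FLASH the values were 279, 329.7, 172, 199, 356, 381 and 339.6 CPM, all above CONV. FLASH 4, the lowest at 172 CPM, was little above CONV 6, the highest of its group at 167 CPM. Of the 8 genes this one had the smallest relative spread in FLASH.

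Zbtb16 encodes PLZF, a zinc finger transcription repressor that is strongly inducible by glucocorticoids (chromosome 9, 48654297 to 48836222, − strand). It was barely detected without irradiation, at 0.0730, 0.843 and 1.25 CPM in the lowest, median and highest control. The 5 CONV libraries held 1.47, 0.349, 1.71, 1.49 and 0.532 CPM, which overlaps the controls. The 7 FLASH libraries held 28.2, 53.4, 5.42, 22.5, 46.2, 62.0 and 47.3 CPM. Even FLASH 4, at 5.42 CPM, was above the highest CONV library, and the other FLASH libraries were at 22.5 CPM or more. Zbtb16 is also found in some innate-like T cells, so the 6 T cell and innate lymphoid markers are given beside it. They summed to 42.8 to 74.2 CPM in controls, 10.6 to 25.6 in CONV and 20.1 to 34.6 in FLASH. In FLASH against CONV 2 of the 6 were called higher, where 9.88% of all genes tested were. Il7r, at 0.722 to 1.10 CPM in CONV and 2.16 to 5.89 in FLASH, was higher by 2.28 ± 0.27 on the log2 scale (edgeR adjusted p = 0.000124). Gata3, at 0.209 to 0.372 and 0.482 to 1.24 CPM, was higher by 1.69 ± 0.32 (edgeR adjusted p = 0.00197). All 6 were called lower in FLASH than in control, where 21.0% of all genes tested were. The part of these cells in the Zbtb16 level was not tested.

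Sgk1 encodes a serine/threonine kinase that glucocorticoids and mineralocorticoids induce and that raises sodium transport by epithelia (chromosome 10, 21882184 to 21999903, + strand). It had 41.1, 103 and 167 CPM in the lowest, median and highest control and 163, 99.95, 92.8, 152 and 118 CPM in the CONV libraries, so these groups overlapped. FLASH libraries had 2173, 2249, 290.3, 574, 1657, 1953 and 1444 CPM. All lay above CONV, and FLASH 4 and FLASH 5 stood well below the other 5. Per kilobase of exon, with all annotated exons of a gene merged, Sgk1 had the highest mean level of the 8 genes in FLASH, at 301 CPM per kb. Ddit4 had 91.6, Tsc22d3 67.7 and Fkbp5 40.9 CPM per kb, and the order of these genes depends on the length used. Fkbp5 has 9468 bases of merged exons but a longest transcript of 3858, while Ddit4 has 1755 by either. Ddit4 also had a coefficient of variation of 90.4% in FLASH. The lowest were Cebpd at 7.09, Zbtb16 at 7.16 and Klf9 at 8.10 CPM per kb, which differed by less than their spread. In controls Sgk1 was also first, at 21.6 CPM per kb, and Zbtb16 last, at 0.146 CPM per kb.

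Errfi1 encodes MIG6, an inhibitor of the EGF receptor kinase (chromosome 4, 150853919 to 150868892, + strand). Its lowest, median and highest control level was 19.0, 29.0 and 34.6 CPM. The CONV libraries had 59.6, 81.9, 76.8, 87.0 and 49.4 CPM and all lay above the controls. The FLASH libraries had 369, 276, 119.98, 68.1, 143, 141 and 108 CPM. FLASH 5 fell inside the CONV range, and FLASH 1 and FLASH 2 were far above the rest.

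Ddit4 encodes REDD1, an inhibitor of mTORC1 signalling (chromosome 10, 59949669 to 59951834, − strand). It had 12.4, 16.7 and 25.6 CPM in the lowest, median and highest control and 44.2, 33.4, 31.1, 37.6 and 27.6 CPM in the CONV libraries, with no overlap. The FLASH libraries had 355, 368, 39.99, 39.6, 74.9, 182 and 65.8 CPM. FLASH 4 and FLASH 5 were inside the CONV range, and FLASH 1 and FLASH 2 were at nearly the same high level.

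Klf9 and Cebpd, which encode transcription factors, had the smallest differences between FLASH and control. Klf9 (chromosome 19, 23141226 to 23168134, + strand), a zinc finger factor that restrains proliferation in several epithelia, had 12.8, 24.1 and 32.3 CPM in the lowest, median and highest control. Its CONV libraries had 10.8, 19.3, 20.7, 10.3 and 13.3 CPM, and its FLASH libraries 48.2, 65.5, 18.6, 23.2, 27.8, 64.9 and 24.9 CPM. Only FLASH 1, FLASH 2 and FLASH 7 lay above the controls, and FLASH 4 fell inside the CONV range. Cebpd (chromosome 16, 15887286 to 15891031, + strand), a C/EBP family factor of acute responses, had 12.5, 15.2 and 18.8 CPM in the lowest, median and highest control. Its CONV libraries had 16.5, 9.70, 12.8, 9.48 and 19.8 CPM, and its FLASH libraries 48.5, 49.3, 5.81, 8.53, 22.5, 36.7 and 14.5 CPM. FLASH 4 and FLASH 5 were below every CONV and control library, so the group mean of Cebpd hid values on both sides of the controls. Cebpd overlaps Spidr on the opposite strand, whose mean was 7.41, 6.39 and 3.86 CPM in control, CONV and FLASH.

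**Figure D1:**
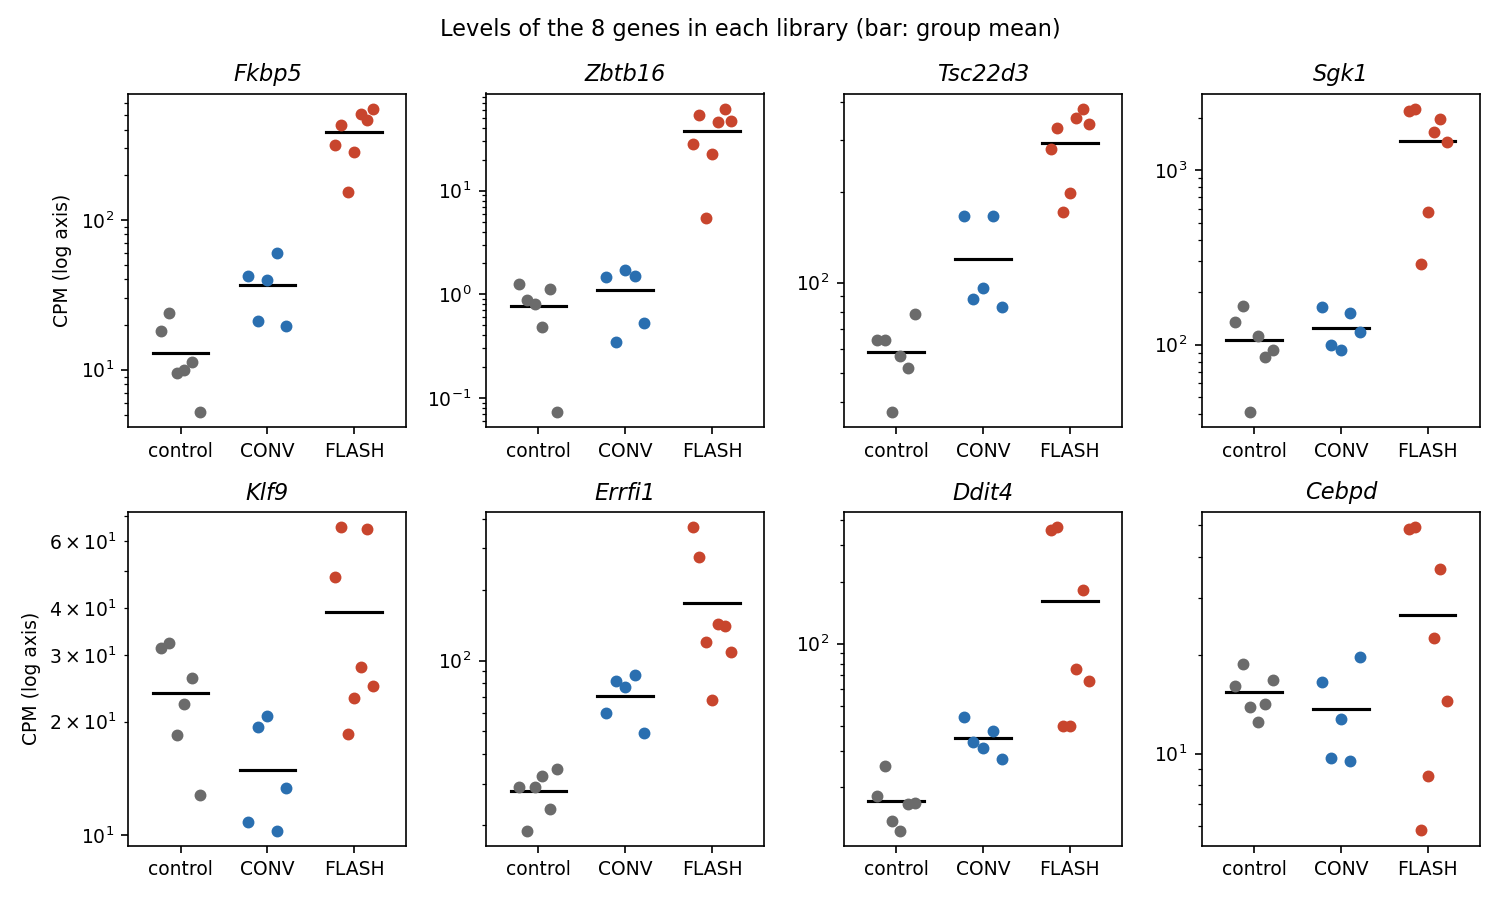
Level of each of the 8 genes in every library (points, CPM on a log axis) for 6 control, 5 CONV and 7 FLASH libraries, with the group mean as a bar. Fkbp5, Zbtb16, Tsc22d3 and Sgk1 show FLASH libraries wholly above CONV, while the FLASH points of Klf9, Errfi1, Ddit4 and Cebpd reach down into the CONV range or below it.

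FLASH was wholly above CONV for 4 of the 8 genes (Fkbp5, Zbtb16, Tsc22d3 and Sgk1), against 4.08% of the 16257 genes tested. This contrast chose the genes, so nothing is read from that count. FLASH was wholly above control for 6 of the 8, all except Klf9 and Cebpd (6.93% of genes tested). CONV was wholly above control for 3, Tsc22d3, Errfi1 and Ddit4 (5.46% of genes tested). CONV was wholly below control for 4.95% of genes and for no member. These comparisons share libraries with the one that chose the genes.

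The fitted difference between FLASH and CONV was widest for Zbtb16, with a log2 fold change of 5.10 ± 0.63 (SE), or 34.4-fold. Sgk1 followed with 3.56 ± 0.47 (11.8-fold) and Fkbp5 with 3.403 ± 0.41 (10.6-fold). Ddit4 had 2.21 ± 0.52, Klf9 1.39 ± 0.34, Errfi1 1.30 ± 0.33, Tsc22d3 1.29 ± 0.25 and Cebpd 0.96 ± 0.42. These 8 log2 fold changes are given without a test, since they chose the genes. The 2 irradiated groups share their controls, so their differences from control are set side by side only. Against control, CONV had log2 fold changes of 1.498 ± 0.38 for Fkbp5, 1.35 ± 0.33 for Errfi1, 1.03 ± 0.25 for Tsc22d3 and 1.01 ± 0.50 for Ddit4. Zbtb16 (0.49 ± 0.59), Sgk1 (0.24 ± 0.42) and Cebpd (-0.17 ± 0.43) were within about 1 SE of 0, and Klf9 was at -0.68 ± 0.34. FLASH against control gave 5.59 ± 0.60 for Zbtb16, 4.90 ± 0.41 for Fkbp5, 3.80 ± 0.44 for Sgk1, 3.22 ± 0.51 for Ddit4, 2.65 ± 0.33 for Errfi1 and 2.32 ± 0.24 for Tsc22d3. Cebpd had 0.79 ± 0.39 and Klf9 0.71 ± 0.31. Errfi1 and Tsc22d3 thus covered about as much log2 distance between control and CONV as between CONV and FLASH, whereas Zbtb16 and Sgk1 covered nearly all of it between CONV and FLASH.

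**Figure D2:**
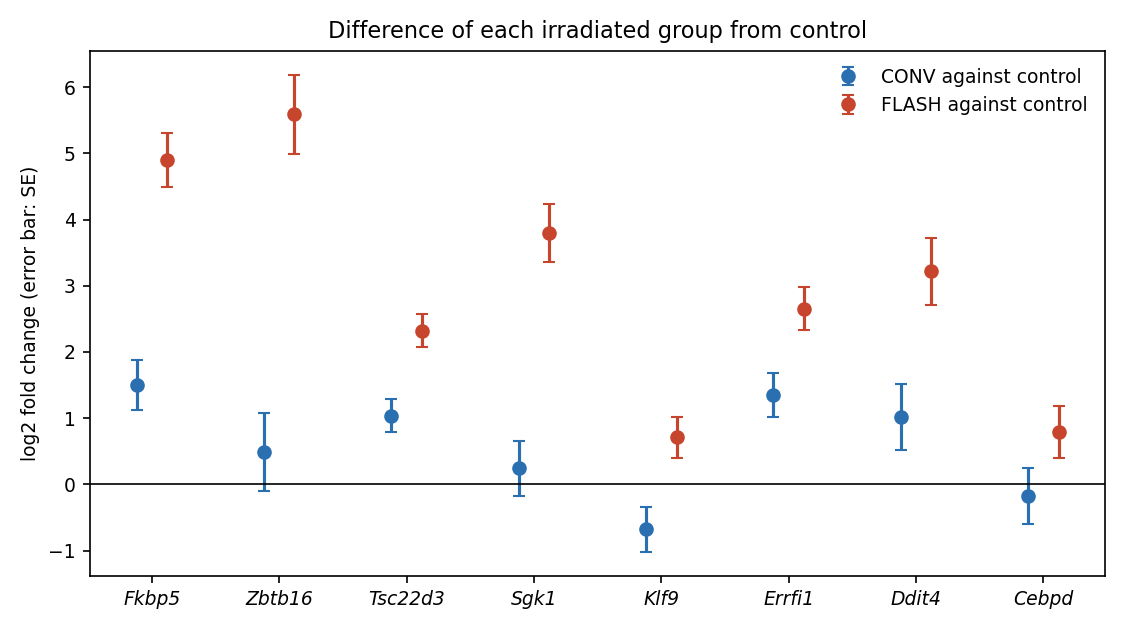
Log2 fold change of each gene in CONV (blue) and in FLASH (red) against control, with the standard error of the fit as bars (5 CONV, 7 FLASH and 6 control libraries). The 2 estimates lie farthest apart for Zbtb16, at 0.49 and 5.59, and closest for Cebpd, at -0.17 and 0.79.

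All 12 irradiated libraries, weighted equally, were also set against the 6 controls. With equal spread in both irradiated groups this contrast would be uncorrelated with the one that chose the genes. The SD of log2 CPM was larger in FLASH than in CONV for 6 of the 8 genes, with 1.39 against 0.26 for Ddit4 and 1.13 against 0.36 for Sgk1. The values are therefore a description too, and no p is given. Fkbp5 had a log2 fold change of 3.48 ± 0.37 (SE), Zbtb16 3.47 ± 0.53, Sgk1 2.32 ± 0.39, Ddit4 2.30 ± 0.46, Errfi1 2.11 ± 0.30 and Tsc22d3 1.79 ± 0.22. Cebpd had 0.39 ± 0.36, and Klf9 had 0.13 ± 0.28, which became -0.19 with library totals as the scaling. The median over the 8 was 2.21, against -0.05 over all genes tested. In the fit across all genes 6 of the 8 were past an adjusted p of 0.05, all but Klf9 and Cebpd, where 15.3% of all genes were called higher and 20.7% lower, and nothing is read from that count. For Zbtb16 and Sgk1 the difference came almost wholly from the FLASH libraries, as their CONV values above show.

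The spread inside FLASH differed widely among the 8 genes. The coefficient of variation was 27.4% for Tsc22d3, 36.4% for Fkbp5, and 52.4%, 52.2% and 51.8% for Zbtb16, Sgk1 and Klf9. It was 61.2% for Errfi1, 69.1% for Cebpd and 90.4% for Ddit4. For the last 3 the same measure was 20.7, 14.8 and 26.8% in controls and 22.3, 32.7 and 18.4% in CONV, so the FLASH libraries were the most uneven. For Fkbp5, Zbtb16 and Tsc22d3 it was 51.9, 56.3 and 23.8% in controls, near or above that in FLASH. The highest FLASH library exceeded the lowest 11.4-fold for Zbtb16, 9.29-fold for Ddit4, 8.48-fold for Cebpd and 7.75-fold for Sgk1. The same ratio was 5.41 for Errfi1, 3.58 for Fkbp5, 3.52 for Klf9 and 2.22 for Tsc22d3. The width rested in part on FLASH 4. Without it, the SD of log2 CPM inside FLASH went from 0.64 to 0.38 for Fkbp5, from 1.21 to 0.57 for Zbtb16 and from 1.13 to 0.74 for Sgk1.

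The same libraries were high or low for most of the 8 genes. Averaged over the 8, FLASH 2 lay 0.87 above the FLASH mean on the log2 scale, FLASH 1 0.65 and FLASH 7 0.61. FLASH 6 and FLASH 9 were near it, at 0.13 and -0.05, while FLASH 5 was at -0.85 and FLASH 4 at -1.37. FLASH 4 was below the mean for each of the 8 genes, and so was FLASH 5. The high libraries differed by gene. FLASH 1 and FLASH 2 were the highest for Sgk1, Errfi1, Ddit4 and Cebpd, with Ddit4 at 1.70 and 1.75 above the FLASH mean. For Fkbp5 the highest were FLASH 9 and FLASH 6, at 0.62 and 0.49, and FLASH 1 was at -0.19. FLASH 9 was below the mean for Klf9, Errfi1, Ddit4 and Cebpd and above it for the other 4. The length slope was -0.34 in FLASH 1 and -0.09 in FLASH 2, 0.16 and 0.08 in FLASH 4 and FLASH 5, and 0.27 in FLASH 7, and its part in this order was not tested.

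**Figure D3:**
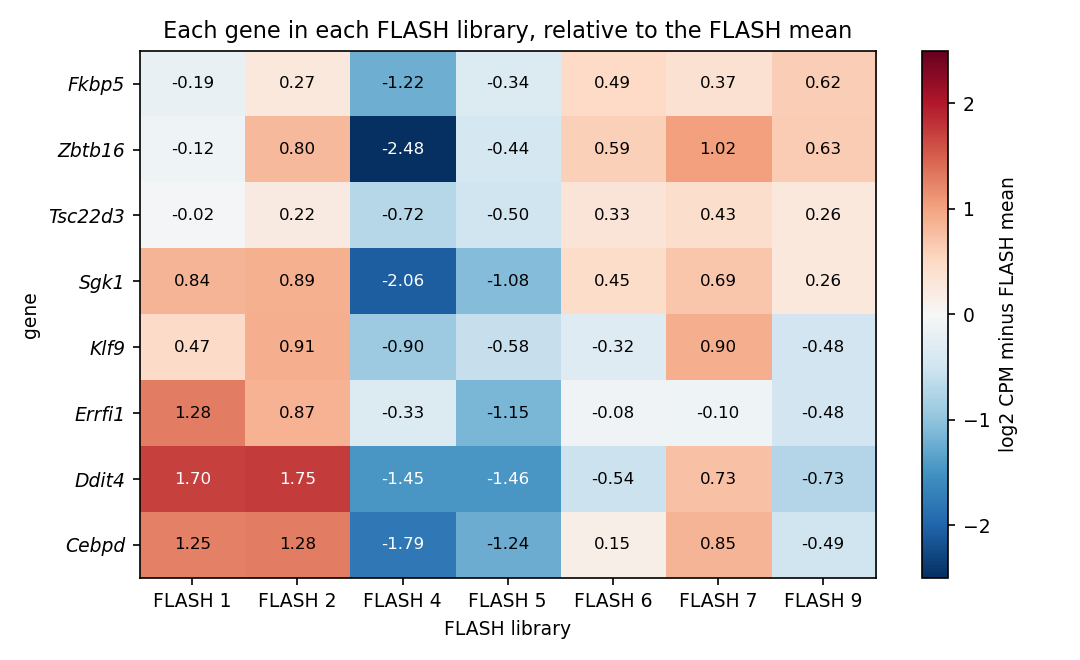
Log2 CPM of each gene (rows) in each of the 7 FLASH libraries (columns) minus the mean of that gene over the FLASH libraries, in colour with the value in each cell. FLASH 4 and FLASH 5 are negative for all 8 genes, and FLASH 1 and FLASH 2 are most positive for Ddit4.

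Inside FLASH, Fkbp5 varied most closely with Zbtb16 and Tsc22d3. Over the 7 FLASH libraries Pearson's r of log2 CPM with Fkbp5 was 0.96 for Zbtb16 (exact permutation p = 0.00675, 0.0236 adjusted over the 7 relations with Fkbp5) and 0.93 for Tsc22d3 (exact permutation p = 0.00238, adjusted 0.0167). Spearman's rho was 0.71 for Zbtb16 (exact permutation p = 0.0881, adjusted 0.308) and 0.86 for Tsc22d3 (exact permutation p = 0.0238, adjusted 0.167). Sgk1 had r = 0.82 with Fkbp5 (exact permutation p = 0.0347, adjusted 0.0810) and rho = 0.32 (exact permutation p = 0.498, adjusted 0.649). The r of Cebpd, Klf9, Ddit4 and Errfi1 with Fkbp5 was 0.59, 0.46, 0.37 and 0.13 (exact permutation p = 0.158, 0.305, 0.433 and 0.782). Their rho was 0.32, 0.39, 0.29 and 0.07 (exact permutation p = 0.498, 0.396, 0.556 and 0.906), and none of these 4 genes passed by either measure (lowest adjusted p = 0.277). Without FLASH 4 and FLASH 5, the libraries farthest from the Fkbp5 median, r was 0.73 for Zbtb16 and 0.80 for Tsc22d3. For Sgk1 it turned to -0.78, so that relation rested on those 2 libraries. With the same 5 libraries Klf9, Cebpd, Ddit4 and Errfi1 were at -0.52, -0.80, -0.82 and -0.92. The adjusted p of Zbtb16 and Tsc22d3 was 0.0778 for both without FLASH 1, 0.175 and 0.117 without FLASH 4, and 0.0972 for both without FLASH 5.

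Across all 28 pairs of the 8 genes, r inside FLASH was positive for 28 and over 0.5 for 23, with a median of 0.78 and a range of 0.13 to 0.96. Over all pairs of genes tested, which share these libraries, 21.0% of pairs were over 0.5 and the median was 0. A second set of close pairs did not include Fkbp5: Ddit4 with Cebpd (0.95), Klf9 with Ddit4 (0.92), Klf9 with Cebpd (0.92) and Errfi1 with Ddit4 (0.90). Sgk1 was close to both sets, at 0.94 with Cebpd, 0.90 with Tsc22d3 and 0.89 with Zbtb16. The weakest pairs joined Errfi1 with Fkbp5 (0.13), Zbtb16 (0.24) and Tsc22d3 (0.36). Over all 18 libraries with the group means removed, 27 of the 28 pairs were positive and 14 were over 0.5, with a median of 0.51. Of all gene pairs 50.1% were then positive and 15.68% were over 0.5. Ddit4 with Cebpd (0.89) and Fkbp5 with Zbtb16 (0.87) were then the closest, while Tsc22d3 was at 0.60 with Fkbp5 and 0.43 with Zbtb16. These r across pairs are descriptions, since pairs share genes and libraries.

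**Figure D4:**
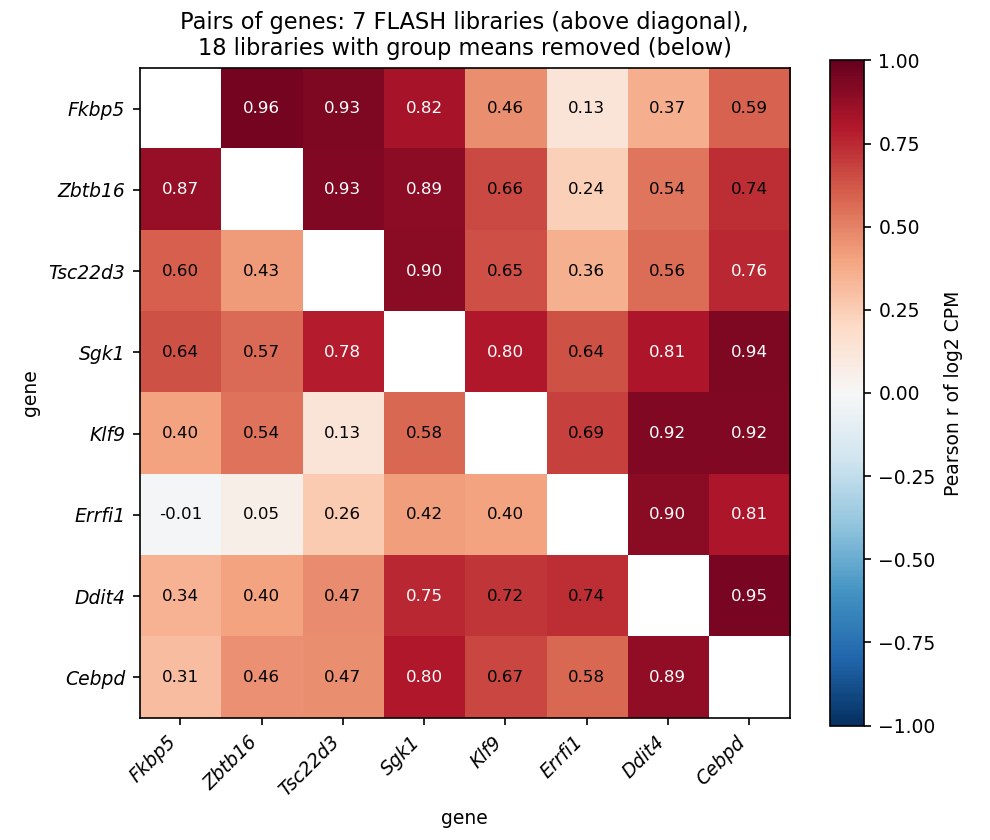
Pearson's r of log2 CPM for each pair of the 8 genes, over the 7 FLASH libraries above the diagonal and over 18 libraries with group means removed below it. Above the diagonal dark cells join Fkbp5, Zbtb16 and Tsc22d3, and also Ddit4, Cebpd and Klf9. Below it Zbtb16 with Tsc22d3 is at 0.43, and Errfi1 with Fkbp5 is near 0, at -0.01.

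Of 10240 other named genes with a mean of at least 5 CPM, the 5 whose deviations from the group means over the 18 libraries were most like the average of the 8 were Glul, Fut4, Vamp2, Arf2 and Plat, with r of 0.92, 0.91, 0.91, 0.90 and 0.89. Sgk1 was the member closest to that average (0.92), then Ddit4 (0.88) and Cebpd (0.86), and Errfi1 was the farthest (0.57). Each member is itself part of the average, which raises its r, so these values do not compare with those of the 5 genes. Glul, glutamine synthetase, is a known glucocorticoid-induced gene. The 5 CONV libraries averaged 58.9 ± 19.7 CPM (SD) and the 7 FLASH libraries 239.5 ± 131. It was higher in FLASH than in CONV by 2.02 ± 0.37 on the log2 scale (edgeR adjusted p = 0.00142). The fucosyltransferase gene Fut4 was higher by 2.42 ± 0.27 (edgeR adjusted p = 0.000102), and Plat, tissue plasminogen activator, by 3.14 ± 0.48 (edgeR adjusted p = 0.000501). Vamp2, a vesicle fusion protein gene, was higher by 0.99 ± 0.19 (edgeR adjusted p = 0.00210), and Arf2, of the ARF family of small GTPases, by 0.87 ± 0.27 (edgeR adjusted p = 0.0314).

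A list of 36 other genes known to be induced by glucocorticoids in at least 1 tissue was set beside the 8, of which 35 were tested and Igfbp1 was too low. This list and those below were chosen with earlier results of these data known. Their counts are therefore descriptions and no independent support for the 8. In FLASH against CONV 22 of the 35 were higher (edgeR, adjusted p below 0.05) and 13 did not pass, where 9.88% of all genes tested were called higher and 9.91% lower. The count of 22 was 16 with the replicate number as a block and 24 with DESeq2. On leaving out 1 library it ran from 18 (without CONV 2) to 24 (without control 6). The median log2 fold change of the list was 1.27, against -0.02 over all genes tested. Pck1, which makes phosphoenolpyruvate for glucose synthesis, was higher by 4.05 ± 0.40 (edgeR adjusted p = 4.3e-05), going from 107 ± 45.2 CPM in CONV (SD, n = 5) to 1769 ± 712 CPM in FLASH (n = 7). Pdk4, which inhibits pyruvate dehydrogenase, was higher by 4.12 ± 0.47 (edgeR adjusted p = 0.000102), the lipase inhibitor gene Angptl4 by 3.05 ± 0.45 (0.000370) and the glucose-6-phosphatase gene G6pc by 2.36 ± 0.37 (0.000614). Per1, a clock gene with a receptor element, was higher by 2.47 ± 0.45 (edgeR adjusted p = 0.00147) and the phosphatase gene Dusp1 by 1.35 ± 0.34 (0.00981). Nfkbia, which encodes the NF-kB inhibitor, had a log2 fold change of 0.56 ± 0.39 (edgeR adjusted p = 0.324), which ran from 0.30 without FLASH 1 to 1.05 without CONV 7, the CONV library with the highest Nfkbia at 186 CPM. The FLASH libraries were wholly above CONV for 13 of the 35, and for 4.08% of all genes tested.

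In CONV against control the same list had 8 of 35 genes higher, 2 lower and 25 that did not pass, where 10.2% of all genes tested were called higher and 12.0% lower. The count of 8 was 5 without CONV 6. Those higher included G6pc by 2.80 ± 0.37 (log2), Pdk4 by 2.39 ± 0.42, the antimicrobial gene Lcn2 by 4.49 ± 0.77 and the receptor kinase gene Mertk by 0.96 ± 0.20. The 2 lower were the transglutaminase gene Tgm2, by -0.96 ± 0.28, and Pik3r1, a regulatory subunit gene of phosphoinositide 3-kinase, by -0.85 ± 0.29. Neither was firm: Tgm2 lost its call without control 4, CONV 2 or CONV 6 (edgeR adjusted p = 0.0517, 0.0668 and 0.0717), and Pik3r1 without any 1 of 7 libraries (up to 0.121, without CONV 6) or with an offset for transcript length and GC trends per library (-0.40, 0.0665). In FLASH against control 26 of the 35 were higher, 1 lower and 8 did not pass (16.7% of all genes tested were called higher and 21.0% lower). Pdk4 was higher by 6.51 ± 0.49, Pck1 by 5.26 ± 0.39, G6pc by 5.15 ± 0.40 and Angptl4 by 4.55 ± 0.45, and the 1 lower was Tgm2 by -0.69 ± 0.25, a call lost without any 1 of 10 libraries (edgeR adjusted p up to 0.0957, without control 4). Per1 and Dusp1, like Sgk1 and Zbtb16, differed little between CONV and control, at -0.38 ± 0.43 and 0.13 ± 0.34 (edgeR adjusted p = 0.521 and 0.799), while both were higher in FLASH than in control, by 2.09 ± 0.41 and 1.48 ± 0.32. Nfkbia did not pass in either (adjusted p = 0.812 and 0.142).

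**Figure D5:**
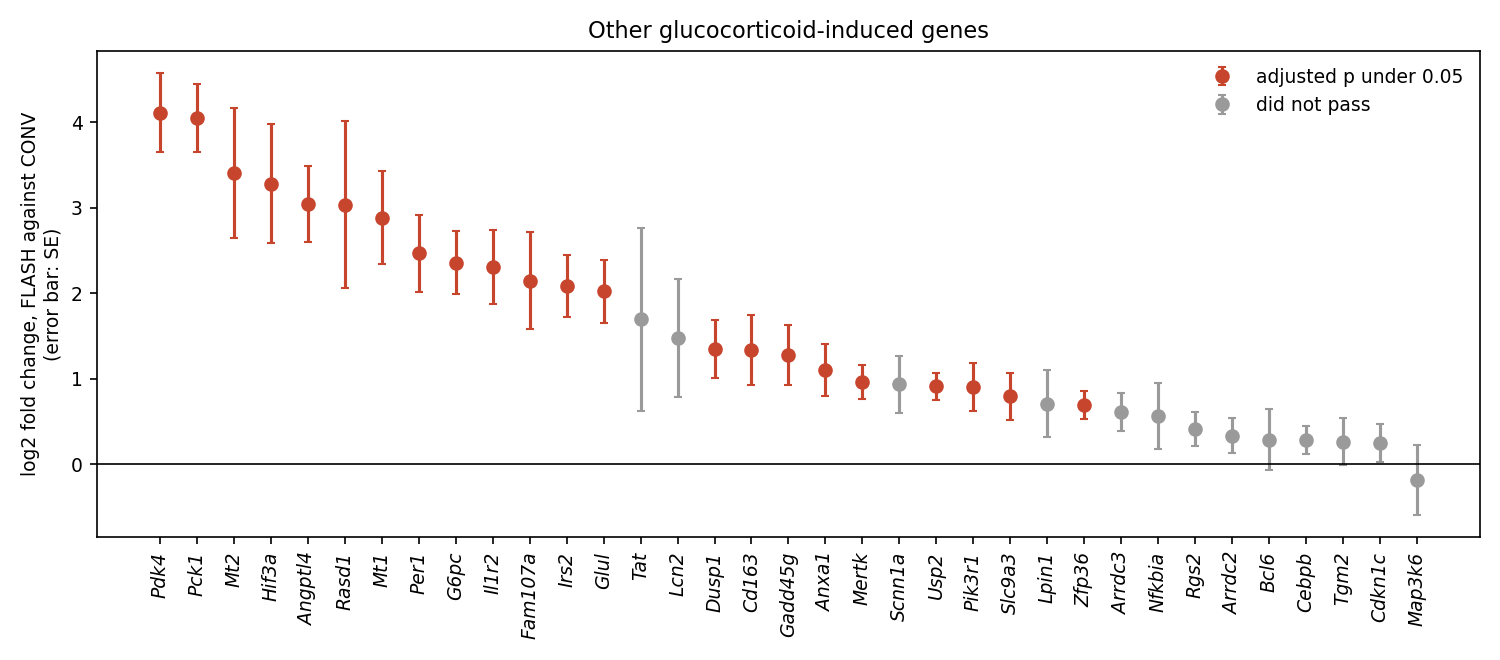
Log2 fold change in FLASH against CONV for the 35 tested genes of the list of other glucocorticoid-induced genes, with standard errors as bars, in red where the edgeR adjusted p is below 0.05 and in grey otherwise. The 22 red points all lie above 0, led by Pdk4 at 4.12 and Pck1 at 4.05, and Map3k6 is the single gene below 0.

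Of 10 inflammatory genes that glucocorticoids are known to repress, 8 were tested and Il6 and Cxcl1 were too low. In FLASH against CONV 2 of the 8 were lower, where 9.91% of all genes tested were called lower. The chemokine gene Cxcl10 was lower by -2.32 ± 0.45 (edgeR adjusted p = 0.00227) and the cytokine gene Il1b by -1.88 ± 0.42 (0.00523). Il1b leaned on CONV 2, at 7.96 CPM where the remaining 4 had 1.15 to 2.59 CPM, and was at -1.09 without it (edgeR adjusted p = 0.0272). In FLASH against control 4 of the 8 were lower, where 21.0% of all genes tested were: Nos2, inducible nitric oxide synthase, by -4.40 ± 0.87, Cxcl10 by -3.24 ± 0.45, Il1b by -1.76 ± 0.40 and Tnf by -1.30 ± 0.40. In CONV against control 0 of the 8 passed with edgeR, with 1 lower at an unadjusted p below 0.05, and DESeq2 and limma-trend each called 1 lower. Without CONV 7 edgeR called 2 lower. It called 1 without control 6, CONV 3 or FLASH 7, and 1 with the replicate number as a block. The 4 macrophage and monocyte markers, cells that make several of these products, summed to 194 to 441 CPM in controls, 134 to 206 in CONV and 68.9 to 150.4 in FLASH. Not all 4 shared the lower sum in FLASH. Median Lyz2 was 124, 135 and 51.5 CPM in control, CONV and FLASH, and median Csf1r 68.5, 32.6 and 35.4. In FLASH against CONV edgeR called 2 of the 4 lower and 0 higher (9.91% of all genes tested were called lower). The part of the lower marker sum in the inflammatory genes was not tested.

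The receptor gene Nr3c1 itself was not higher with the 8 genes. The 6 controls averaged 156 ± 18.3 CPM (SD), the 5 CONV libraries 131 ± 23.6 and the 7 FLASH libraries 115 ± 15.71, and its log2 fold change in FLASH against CONV was -0.19 ± 0.14 (edgeR adjusted p = 0.335). Against control it was lower in FLASH, by -0.44 ± 0.13 (edgeR adjusted p = 0.0123). Nr3c2, the mineralocorticoid receptor gene, had a log2 fold change of 0.27 ± 0.18 in FLASH against CONV (edgeR adjusted p = 0.328) and was lower in CONV than in control by -0.62 ± 0.19 (0.0279). The call of Nr3c2 was lost without any 1 of control 4, control 5, CONV 2, CONV 6 and CONV 7 (edgeR adjusted p up to 0.0877) and with the length and GC offset (-0.25, adjusted p = 0.310), and that of Nr3c1 with the same offset (-0.26, 0.0964). Of the 4 chaperone genes listed, 3 were lower in FLASH than in CONV: Fkbp4, the co-chaperone that opposes FKBP51, by -1.35 ± 0.18 (edgeR adjusted p = 0.000203), Ptges3 (p23) by -0.65 ± 0.16 (0.00993) and Hsp90aa1 by -0.59 ± 0.19 (0.0340). The call of Hsp90aa1 was lost without any 1 of 10 libraries (edgeR adjusted p up to 0.0942, without CONV 7). Fkbp4 went from 214 ± 44.3 CPM in CONV to 84.0 ± 27.4 CPM in FLASH while Fkbp5 went the other way.

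Genes of steroid supply were mixed. Hsd11b1, which reactivates corticosterone, had 4.50 ± 1.15 CPM in controls, 8.80 ± 0.92 in CONV and 13.0 ± 4.47 in FLASH. It was higher in CONV than in control by 0.97 ± 0.24 (edgeR adjusted p = 0.0103), and its log2 fold change in FLASH against CONV was 0.56 ± 0.24 (adjusted p = 0.102), or 0.72 without FLASH 4 (0.0196). H6pd, which supplies the cofactor of that enzyme, was higher in FLASH than in CONV by 1.20 ± 0.25 (edgeR adjusted p = 0.00336). Hsd11b2, which inactivates the hormone, was lower than in control in CONV by -1.67 ± 0.35 and in FLASH by -1.004 ± 0.31 (edgeR adjusted p = 0.00344 and 0.0161). Nr5a2, a regulator of steroid synthesis in the gut, was lower in CONV than in control by -0.69 ± 0.19 (edgeR adjusted p = 0.0184) and had 0.44 ± 0.19 in FLASH against CONV (0.105). Without CONV 2 or CONV 6 the first of these had an adjusted p of 0.0556 and 0.0627. With the length and GC offset the second was 0.42 (edgeR adjusted p = 0.0394). Star, also listed under steroid supply, was at most 1.32 CPM in any FLASH library. It was higher in FLASH than in control by 0.99 ± 0.39 (edgeR adjusted p = 0.0492). In FLASH against CONV it had 1.17 ± 0.42 (edgeR adjusted p = 0.0552). Its call against control was lost without any 1 of 14 libraries (edgeR adjusted p up to 0.102). The synthesis genes Cyp11a1 and Cyp11b1 were too low to test, with 17 and 14 counts summed over the 7 FLASH libraries and 7 and 2 over the 6 controls. In all, of 11 genes of receptors, chaperones and supply tested, 1 was higher and 3 were lower in FLASH than in CONV, beside 9.88% and 9.91% of all genes tested. The 1 became 2 without control 1, control 2, CONV 3, FLASH 1, FLASH 4 or FLASH 6. It was 4 with the length and GC offset and 3 with limma-trend on the deposited log2 values. With DESeq2, its size factors, the replicate block or only the groups compared it was 2. Steroid levels were not analysed here.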

How the data were processed

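Whole jejunum RNA of 18 libraries was sequenced as single-end reads of 100 bp after stranded mRNA library preparation from 250 ng of RNA, per the labels. The submitters' processing notes name STAR, Salmon, edgeR 3.40.2, limma 3.54.2 and mm10. The authors deposited expected counts (estimated reads per gene, not scaled), which were rounded here, and a table of normalized log2 values for 19193 genes, used only as an alternative. A symbol was found for 54409 of 54532 gene identifiers in the mm10 annotation, and the other 123 held 0.028% of counts.

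The test was edgeR 4.0.16's quasi-likelihood test (R 4.3.3) over all 18 libraries, with filterByExpr, TMM factors and Benjamini-Hochberg adjustment over 16257 genes, threshold 0.05. Standard errors were derived from the fold change and its F statistic. CPM are counts scaled to a common TMM-adjusted library size, and log2 CPM add a prior count of 2. Correlations over FLASH libraries used all 5040 pairings (two-sided). The irradiated against control contrast weights CONV 5 to 7 with FLASH. The fit was tested on simulated data. The 2 most alike libraries, CONV 3 and CONV 5, still differed by more than sampling noise (chi-square per degree of freedom 25.1).

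The 8 genes and the gene lists were chosen with earlier results of these data known. Named from each list were up to 4 genes per comparison and direction with the smallest p among those that passed, and Per1, Dusp1, Nfkbia, Pdk4, Nr3c1, Nr3c2, Hsd11b1, Hsd11b2, Cyp11a1, Cyp11b1 and Nr5a2 in any case. H6pd, Star, Fkbp4, Ptges3, Hsp90aa1 and the 5 genes most like the 8 fall under these rules. Alternatives were DESeq2 1.42.0 and its size factors, limma-trend (limma 3.58.1) on the deposited log2 values, library totals, other filters (1 count, or a mean of 1 CPM), an offset for length and GC trends of each library, the replicate number as a block, fits of the groups compared only, and leaving out libraries. Counts per library were lowest for Zbtb16, at 2 to 40 in controls and 10 to 46 in CONV, so counting error is large there. Figures were made with Python 3.11.15 and matplotlib 3.10.9.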

Additional observations from a re-analysis of the deposited data

Results flagged for a closer look

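Zbtb16 in FLASH was the 1 of 24 combinations of the 8 genes with a group in which a single library stood apart. FLASH 4, the lowest at 5.42 CPM, was separated from the next library by 0.583 of the whole range of the 7 libraries on the log2 scale, above Dixon's 95% critical value. Chance alone gives such a gap in about 1 in 20 groups.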

How the results depend on the processing

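The count of 6 of 8 genes higher in irradiated than in control libraries was the same in all 27 alternatives run. In the fit reported 15.3% of all genes tested were called higher there. That contrast is not independent of how the genes were chosen, so nothing is read from the count. Klf9 changed sign in that contrast with library totals (-0.19), without FLASH 2 (-0.0135) and without FLASH 7 (-0.0125). Its leave-one-out range was -0.0135 to 0.26. Library totals moved the median log2 fold change over all genes to -0.36 in irradiated against control, -0.18 in FLASH against CONV, -0.25 in CONV against control and -0.44 in FLASH against control. The share of calls that were higher went from 42.4 to 16.9%, from 49.9 to 24.4%, from 46.0 to 24.2% and from 44.3 to 17.4%. Genes called in CONV against control, 3615 in the fit reported, ran from 1869 (without CONV 6) to 6493 (without control 6), and the induced list had 5 (without CONV 6) to 10 higher there. The r of Fkbp5 inside FLASH ran from -0.0437 to 0.30 with Errfi1 (-0.0437 without FLASH 4, -0.0207 without FLASH 5) and from -0.0419 (without FLASH 4) to 0.53 with Ddit4. With the replicate number as a block, 1569 genes were called in FLASH against CONV (3217 without it). Of the induced list 16 were then higher in FLASH against CONV (22 without it) and 5 in CONV against control (8 without it). Same-numbered libraries deviated with r of -0.20 to 0.09 between CONV and FLASH (0 of 4 over 0.1), -0.27 to 0.61 between control and CONV (2 of 4 over 0.1) and -0.27 to 0.23 between control and FLASH (1 of 5 over 0.1), so not every pair deviated together and the numbers were not taken to pair the libraries. The calls of Tgm2, Pik3r1, Star, Hsp90aa1, Nr3c1, Nr3c2, Nr5a2, Hsd11b2 and Il1b were each lost under at least 1 alternative. In FLASH against CONV Hsd11b1 was called under 3 alternatives, and Nr5a2 with the length and GC offset.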
